A study of Mus musculus with 10 samples.

Results

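Lysosomal hydrolases and membrane proteins were followed in mouse mast cells, which flow cytometry had isolated from the lower airway. The set is 37 genes chosen by name for their place in the lysosome, and all 37 were among the 22815 gene symbols of the deposited count table. They were divided by role into membrane proteins (5 genes), peptidases (9), glycosidases (10), sulfatases (4), lipid hydrolases with their activators and carriers (6), progranulin (1) and transcription factors (2). Of the 37, 36 had enough counts to be tested. The exception was Tfeb, with 9 counts over all libraries.

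All mice were wild-type C57BL/6 of 5 to 7 weeks. They received 20 µL into the nose, either saline or 3 µg of house dust mite (HDM) extract, a common airway allergen, 2 times a week for 3 weeks. Mast cells were sorted as B7hi or B7low, names used here as the labels give them. Saline gave 2 B7hi and 2 B7low libraries, and HDM gave 3 of each. The labels do not say whether the libraries of a group came from separate animals, so p-values measure only the spread between these libraries, which may in part be technical.

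Lysosomes are acidic compartments in which soluble hydrolases take apart proteins, sugar chains, sulfated polymers and lipids. Most of these enzymes are tagged with mannose 6-phosphate in the Golgi and sorted to the lysosome, whose membrane is lined by heavily glycosylated proteins such as LAMP1 and LAMP2. Mast cell secretory granules are lysosome-related organelles that hold several of the same enzymes, which mast cells release when they degranulate. TFEB, TFE3 and MITF are related transcription factors that bind E-box sequences such as CACGTG near many lysosomal genes.

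Promoter sequence is shown for 5 members whose levels differed between the populations, with and without that motif. The promoter table (RefSeq, GRCm38.p6, 250 bases before to 50 after each start) held 32 of the 37 members, in 38 entries. Members without an entry were Asah1, Ctsb, Ctsh, Galns and Npc1. The motif CACGTG reads the same on both strands, so 1 search covers both. It was present in 12 of the 32 members, Lamp1, Mcoln1, Ctsa, Ctsd, Ctsl, Lgmn, Glb1, Gaa, Gla, Naglu, Sgsh and Arsa, and in 31.6% of the 38 entries, against 7.15% of all 32851 promoters of the table. TCACGTGA, which contains CACGTG, was in 4 of the 38 entries (10.5%), those of Ctsa, Ctsd, Mcoln1 and Gla, against 0.974% of all promoters, and the longer palindromic CLEAR element, which contains both, was in 0 of the 38 against 0.326%. The table also holds noncoding and predicted genes, and the shares are not matched for base composition. Below are the upstream windows of Lamp1 (chr8:13158911-13159160, plus strand), Psap (chr10:60277378-60277626, plus strand) and Gm2a (chr11:55097735-55097984, plus strand), and short sites of Ctsd (chr7:142388057-142388077 and chr7:142387910-142387935, minus strand) and Naglu (chr11:101070011-101070036, plus strand). Capitals mark CACGTG.
Lamp1: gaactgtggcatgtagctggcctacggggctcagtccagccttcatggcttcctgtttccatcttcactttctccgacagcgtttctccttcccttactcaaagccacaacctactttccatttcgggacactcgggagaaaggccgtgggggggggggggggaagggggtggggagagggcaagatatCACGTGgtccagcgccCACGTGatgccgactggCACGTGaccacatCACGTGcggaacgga
Psap: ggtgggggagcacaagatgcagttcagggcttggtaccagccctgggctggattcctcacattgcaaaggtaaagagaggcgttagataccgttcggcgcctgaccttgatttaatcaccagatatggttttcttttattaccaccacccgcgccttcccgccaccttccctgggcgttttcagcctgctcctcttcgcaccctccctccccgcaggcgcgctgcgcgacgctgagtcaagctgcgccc
Gm2a: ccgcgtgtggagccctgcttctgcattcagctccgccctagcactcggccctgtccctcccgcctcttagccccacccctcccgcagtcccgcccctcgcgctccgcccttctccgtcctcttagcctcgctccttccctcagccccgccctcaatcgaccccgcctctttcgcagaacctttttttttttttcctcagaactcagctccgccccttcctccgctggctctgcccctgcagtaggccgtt
Ctsd distal site: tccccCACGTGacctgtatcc
Ctsd proximal site: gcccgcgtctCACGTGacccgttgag
Naglu site: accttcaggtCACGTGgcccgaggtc
Lamp1 had 4 copies, at -61, -45, -28 and -15 from its start. The windows of Psap and Gm2a printed here had none. Among members called in the comparison of populations averaged over challenges, described below, CACGTG was in 3 of the 9 that were lower in B7hi (Lamp1, Ctsd and Naglu), in 0 of the 3 that were higher and in 9 of the other 20 with a promoter entry. A match is a string of letters, not a measured binding site.

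Libraries held 525983 to 1725818 counts, and the members took 0.331% to 0.588% of them. Levels are given in CPM (counts scaled to a common library size, with TMM factors), on which a count of 0 allows up to 1.57 CPM in the deepest library and 5.87 CPM in the shallowest (3 counts, counting error only). All 10 mast cell markers were detected in every library. Their summed level was 14215 to 32358 CPM in the 5 B7hi libraries and 50376 to 96414 CPM in the 5 B7low libraries, so the sum moved with the population in the same direction as most lysosomal genes called below. The protease genes Cma1, Cpa3 and Tpsb2 made up much of it. Of the other markers, Ms4a2 (-0.13 on the log2 scale, averaged over challenges, edgeR adjusted p = 0.728), Kit (-0.45, 0.202) and Gata2 (-0.43, 0.149) did not pass between the populations. Fcer1a (-1.12, 0.00575), Hdc (-1.15, 0.0111), Il1rl1 (-1.35, 0.000169) and Hpgds (-1.38, 0.00453) passed and were lower in B7hi. The part of these levels in the results was not tested. In bulk samples, fewer cells of a type and less RNA per cell cannot be told apart. Of 13 macrophage and monocyte markers 12 were in the table. The list summed to 12.2 to 90.0 CPM. Ccr2 was at 6.88 to 76.3 CPM, Itgax at 0 to 24.4 CPM, Lyz2 at 0 to 6.78 CPM and Chil3 at 0 to 6.32 CPM. C1qa and C1qb were at 0 in every library, and the rest of the list was at 5.02 CPM or below. B cell and dendritic cell markers (9 of 11 listed were in the table) summed to 718 and 436 CPM in B7low HDM 1 and 2 and to 7.50 to 85.9 CPM in the other 8. Of the dendritic cell markers, Ccr7 was at 165 and 93.7 CPM in B7low HDM 1 and 2. The others, Flt3, Xcr1, Cd209a and Zbtb46, were at 0 to 4.07 CPM there. T and NK cell markers summed to 90.3 CPM in B7hi saline 2, to 78.1 CPM in B7hi HDM 3 and to 2.53 to 33.3 CPM in the other libraries. Of 3 basophil markers, Mcpt8 was higher in B7hi (2.37, edgeR adjusted p = 0.0121) and Prss34 (-5.27, 3.49e-07) and Cd200r3 (-2.39, 1.21e-05) were lower. Cdh1, of the epithelial list, was higher in B7hi (2.03, 0.000149). Krt18 (3.41, 0.0829) and Scgb1a1 (-1.49, 0.451) of that list did not pass. Epcam and Krt8 were at 2.71 CPM or below in every library. Sftpc was at 39.8 CPM in B7low HDM 3 and at 1.96 CPM or below elsewhere. Of the endothelial list, Cldn5 was at 165 CPM and Cdh5 at 21.7 CPM in B7low HDM 1, and Pecam1 (0.06, 0.908) and Kdr (-1.68, 0.454) did not pass. The part of these markers in the lysosomal results was not tested. Transcripts of the noncoding RNA Kcnq1ot1 set B7low saline 2 and B7hi HDM 2 apart, at 6956 and 12133 CPM. Rn45s, a ribosomal RNA precursor, took 19.7% and 21.6% of counts in B7hi and 27.2% and 28.9% in B7low with saline, where TMM factors were above 1 in both B7hi and below 1 in both B7low libraries, and 21.9% to 26.3% in the HDM libraries. Its part in the results was not tested.

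Per kilobase of exon, averaged over all libraries, the most abundant member was Ctsd, the aspartic protease cathepsin D, at 535 CPM per kb. Next came Ctsc at 76.5, Hexa at 61.5, Gm2a at 57.9, Ctsz at 50.9, Lamp1 at 42.6 and Psap at 42.0 CPM per kb. The lowest were Lgmn at 1.58, Ctsh at 1.05 and Tfeb at 0.152 CPM per kb.

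Summed over the 37 members, the level was 3908 and 3453 CPM in B7hi with saline and 4946 and 4219 CPM in B7low with saline. With HDM it was 4918, 3411 and 4040 CPM in B7hi and 5297, 5745 and 5148 CPM in B7low. Every B7hi library was below every B7low library within each challenge on this scale. With saline that order depends on the scaling: by library size alone the members took 0.423% and 0.383% of counts in B7hi and 0.433% and 0.394% in B7low, which overlap, and the means were 4058 and 4191 CPM in place of 3680 and 4583 CPM. With HDM the shares stayed apart, at 0.331% to 0.463% in B7hi and 0.507% to 0.588% in B7low. Peptidases, of which Ctsd was the largest, summed to 1476 and 1410 CPM in B7hi against 2336 and 2149 CPM in B7low with saline, and to 1666 to 2541 CPM against 2531 to 3177 CPM with HDM, where the ranges just met. The sums are descriptions and were not tested.

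**Figure D1:**
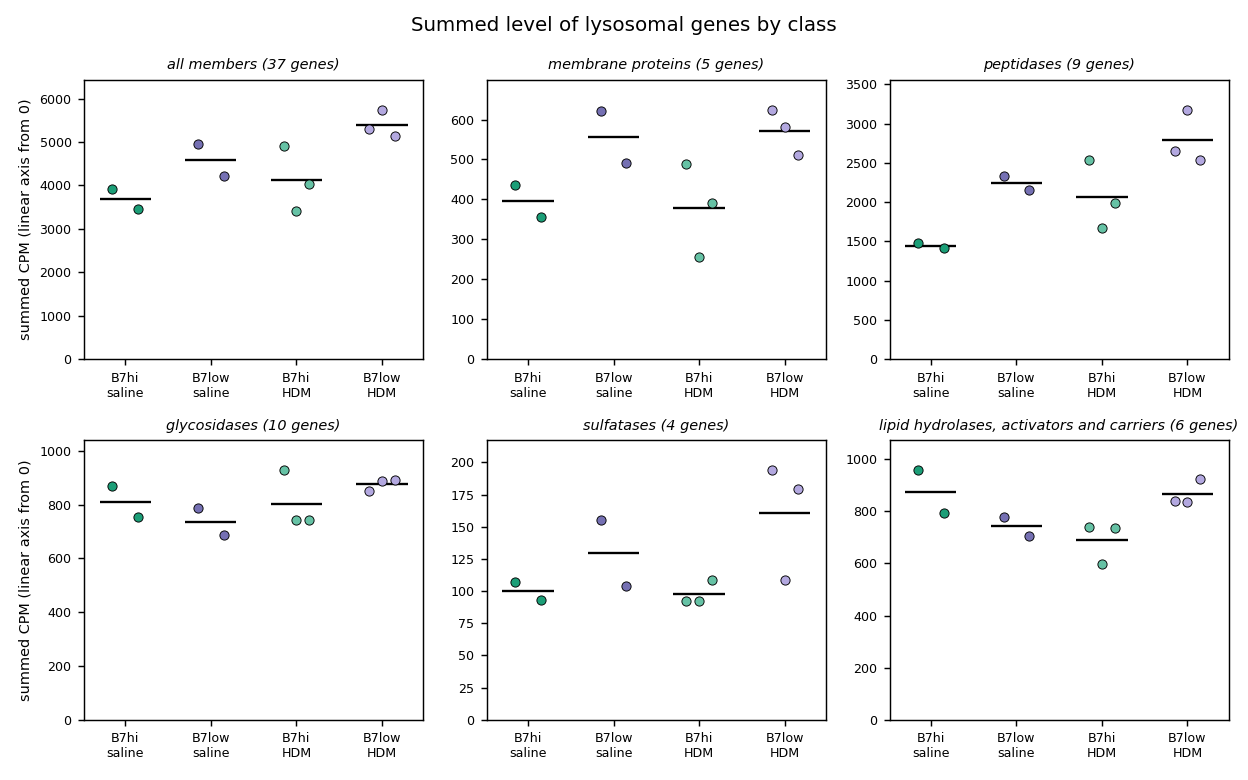
Summed CPM of the lysosomal genes by class in each library (linear axes from 0, points are libraries, lines are group means). In the panel of all 37 genes the B7hi libraries lie below the B7low libraries within each challenge on this TMM scale, but overlap them with saline when scaled by library size alone.

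The first question was which members differed between B7hi and B7low cells. With saline, 7 of 36 tested members passed the threshold (edgeR quasi-likelihood test, Benjamini-Hochberg adjusted p under 0.05), against 6.54% of all 10533 genes. Ctsd, Tpp1, Hexa, Psap and Grn were lower in B7hi (5 of 36, against 3.64% of all genes) and Gm2a and Man2b1 were higher (2 of 36, against 2.91%). Scaled by library size alone, the split was 4 lower and 4 higher. With HDM, 2 of 36 passed, Psap and Naglu, both lower in B7hi, against 2.84% of all genes (2.15% lower and 0.693% higher). This count depends on the test: DESeq2 called 7 of 36, 6 lower and 1 higher, where it called 507 of all genes. With no count filter edgeR called 5 of 37, where it called 548 of all genes. The median log2 fold change of the 36 was -0.05 with saline and -0.41 with HDM, against 0.03 over all genes in each. CPM ranges of the populations were apart for 21 of 36 members with saline and 15 of 36 with HDM, against 51.9% and 20.5% of all genes. The comparisons with saline and with HDM share no library, but both come from 1 fit over all 10 libraries with a shared estimate of spread. Of the 36 members 18 were lower in B7hi in both, 5 were higher in both and 13 had opposite signs, and Psap alone passed in both. Leaving out B7hi saline 1 left 1 member with saline, leaving out B7hi saline 2 or B7low saline 1 left 2, and leaving out B7low saline 2 left 4. The HDM count was 1 without B7hi HDM 3 and 4 without B7hi HDM 1, where 147 and 224 of all genes passed, against 299 in the main fit. In the fits without a saline library, fewer of all genes passed with saline as well.

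Averaged over the challenges, which reuses the same libraries, 12 of 36 members passed, against 11.9% of all genes. Lamp1, Scarb2, Ctsd, Ctsz, Tpp1, Hexa, Naglu, Psap and Grn were lower in B7hi, where 6.08% of all genes were, and Ctsc, Gm2a and Man2b1 were higher, where 5.8% were. For 6 members the 5 B7hi libraries did not overlap the 5 B7low libraries, which held for 9.4% of all genes. These were Psap, Lamp1, Naglu, Tpp1 and Hexa, lower in B7hi, and Ctsc, higher. In the fits given next, which left out libraries, fewer of all genes passed as well. Without B7hi saline 1, or without both B7low HDM 1 and 2, 4 of the 12 still passed, Ctsd, Tpp1, Naglu and Psap, and 6 did without B7low saline 1.

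**Figure D2:**
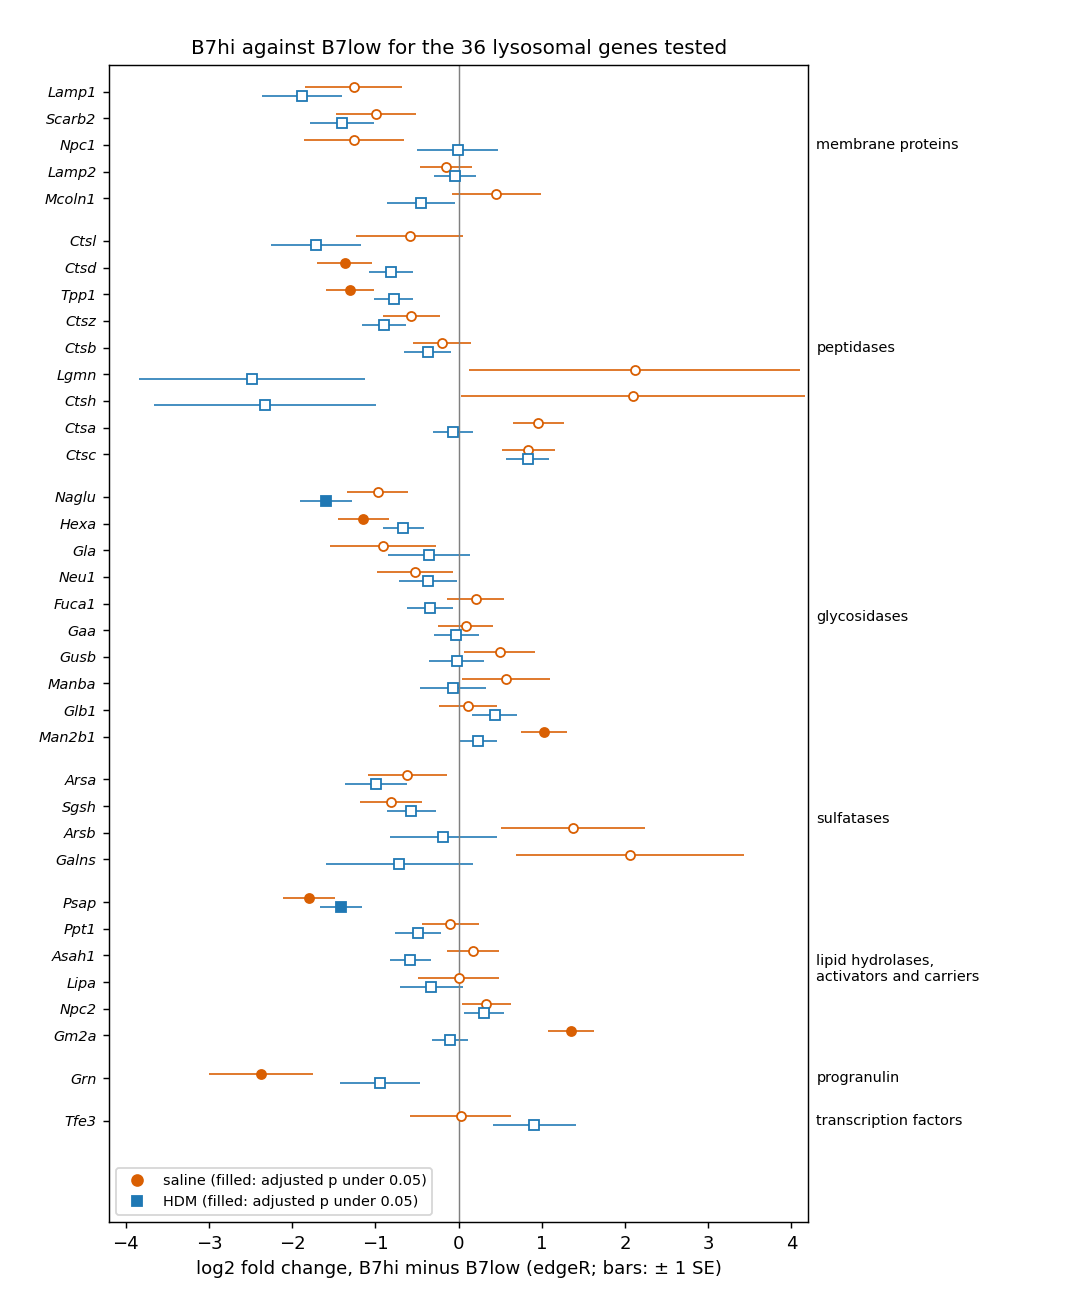
Log2 fold change of B7hi against B7low for the 36 tested members, by class (circles: saline, squares: HDM, filled where the adjusted p was under 0.05, bars: 1 SE). Psap is filled in both challenges, and Lgmn and Ctsh have the widest bars.

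Among membrane proteins, Lamp1, the major glycoprotein of the lysosomal membrane (chr8:13159161-13175338), was at 43.8 and 83.0 CPM in B7hi with saline and 170 and 137 CPM in B7low with saline. With HDM it was at 76.9, 11.7 and 53.4 CPM in B7hi and 240 (239.9), 215 and 108 CPM in B7low. All 5 B7hi libraries were below all 5 B7low libraries, and the 11.7 CPM was in B7hi HDM 2. Its averaged difference was -1.57 ± 0.38 (log2, SE), or 2.97-fold (edgeR adjusted p = 0.0180), while neither challenge passed alone (0.235 with saline, 0.0610 with HDM). Scarb2, the receptor that carries β-glucocerebrosidase to the lysosome, was at 19.6 and 18.3 CPM in B7hi against 56.0 and 20.1 CPM in B7low with saline. After HDM the levels were 21.9, 15.7 and 21.2 CPM against 52.9, 47.5 and 58.8 CPM. B7low saline 2 lay within the B7hi values and the other 4 B7low libraries were above them. The averaged difference of Scarb2 was -1.20 ± 0.31 (adjusted p = 0.0176). Lamp2, the partner of LAMP1 that also serves chaperone-mediated autophagy, was the membrane protein with the highest CPM. It was at 319 and 216 CPM in B7hi and 358 and 236 CPM in B7low with saline, and at 319, 186 and 268 CPM against 271, 273 and 260 CPM with HDM. Lamp2 groups overlapped throughout and the averaged difference was -0.10 ± 0.20 (adjusted p = 0.800). Mcoln1, a lysosomal calcium channel, and Npc1, which exports cholesterol, did not pass in any comparison, at means of 27.5 and 30.6 CPM over all libraries. Lamp1 no longer passed in the averaged comparison once B7hi saline 1 was left out (adjusted p = 0.0989), nor without B7low saline 1 (0.0862) or B7low saline 2 (0.0624). The averaged call of Scarb2 was lost without B7hi saline 1 (0.0727), B7hi saline 2 (0.0742) or B7low saline 1 (0.167), where its log2 difference was -0.73.

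**Figure D3:**
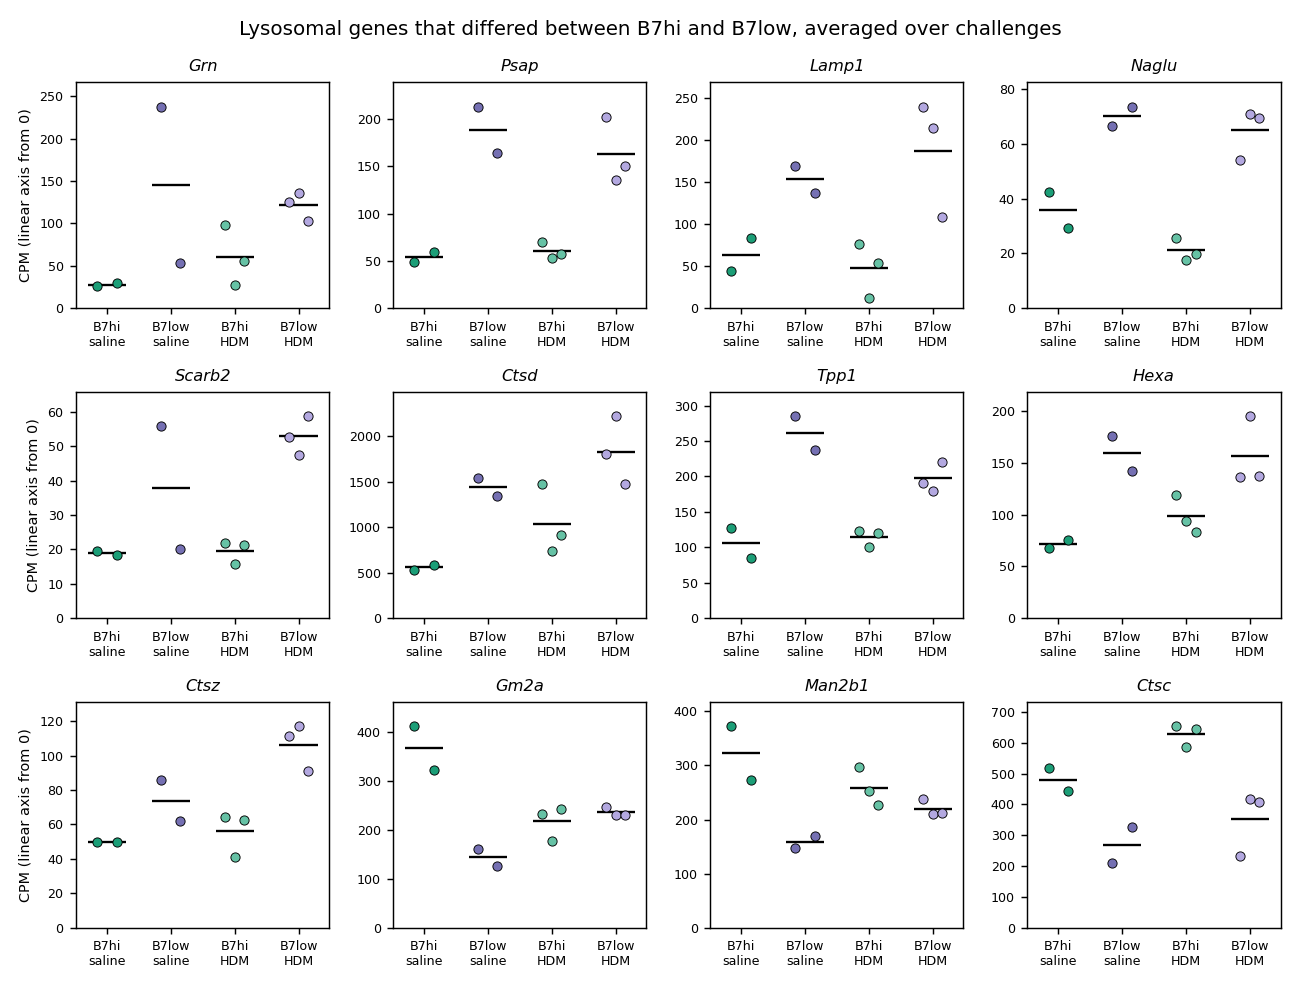
CPM of members called in a comparison of populations, by library (linear axes from 0, points are libraries, lines are group means). For Psap every B7hi point lies below every B7low point.

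Among peptidases, Ctsd (chr7:142375911-142388038) was at 528 and 586 CPM in B7hi against 1537 and 1338 CPM in B7low with saline. In the HDM libraries it was at 1470.09, 732 and 909 CPM against 1801, 2219 and 1469.80 CPM. The groups were apart with saline and just met with HDM, where B7hi HDM 1 was level with B7low HDM 3. Ctsd was lower in B7hi with saline, at -1.37 ± 0.33 (log2, edgeR adjusted p = 0.0201) and its averaged difference was -1.09 ± 0.21 (0.00270), while with HDM the difference was -0.82 ± 0.27 (0.129). Tpp1, tripeptidyl peptidase 1, which trims tripeptides from the amino end of proteins (chr7:105744811-105752235), was at 127 and 84.6 CPM against 285.0 and 237 CPM with saline. HDM libraries held 123, 99.8 and 121 CPM against 191, 179.5 and 221 CPM. Every B7hi library was below every B7low library, and the averaged difference was -1.04 ± 0.19 (adjusted p = 0.00137), with -1.31 ± 0.29 in saline (0.0121) and -0.78 ± 0.23 in HDM (0.0949). Ctsz, a carboxypeptidase, was at 49.9 and 49.6 CPM against 85.7 and 61.9 CPM with saline, and at 64.4, 41.1 and 62.3 CPM against 111, 117 and 91.0 CPM with HDM. The groups were apart within each challenge, and the averaged difference was -0.73 ± 0.22 (adjusted p = 0.0364).

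Ctsc went the other way. It encodes dipeptidyl peptidase I, which removes the activation dipeptide from the proenzymes of granule serine proteases such as mast cell chymases (chr7:88278085-88310888). It was at 518 and 443 CPM in B7hi against 210 (209.8) and 328 CPM in B7low with saline, and at 654, 585 and 645 (644.5) CPM against 232, 417 and 409 CPM with HDM. All 5 B7hi libraries were above all 5 B7low libraries, by 0.84 ± 0.31 with saline (log2, edgeR adjusted p = 0.128), 0.83 ± 0.25 with HDM (0.101) and 0.83 ± 0.20 averaged (0.0125). Ctsa, which protects β-galactosidase and neuraminidase in a complex, was at 148 and 114 CPM against 61.2 and 73.6 CPM with saline, and its difference of 0.96 ± 0.31 did not pass (0.0754). Ctsb and Ctsl, cysteine proteases at means of 109 and 16.4 CPM, did not pass either, with averaged differences of -0.29 ± 0.22 (0.453) and -1.15 ± 0.42 (0.0882). The averaged calls of Ctsd and Tpp1 held without each library in turn. Their saline calls did not, with adjusted p up to 0.182 for Ctsd (lost without B7hi saline 1, B7hi saline 2 or B7low saline 1) and up to 0.161 for Tpp1 (lost without B7hi saline 2 or B7low saline 1). The Ctsc call was lost without B7hi saline 1 or B7low saline 1. That of Ctsz was lost without 6 of the 10 libraries, by library size alone (0.0728), with no count filter (0.0779) and with a replicate block.

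Ctsh and Lgmn, an aminopeptidase and an asparaginyl endopeptidase used in antigen processing, were near the limit of detection in most libraries. Ctsh was at 21.7 and 11.1 CPM in B7low HDM 1 and 2, at 6.26 CPM in B7hi saline 2 and at 0 to 3.75 CPM in the other 7. Lgmn was at 10.8 and 11.1 CPM in B7low HDM 1 and 2, at 7.83 CPM in B7hi saline 2 and at 0 to 2.05 CPM in the other 7. Neither passed a test, and they varied most within groups, with the largest pooled SDs of log2(CPM + 1) among members (1.64 for Ctsh). The libraries that were high in both were also high in the summed B cell and dendritic cell markers (718, 436 and 85.6 CPM). B7low HDM 3, at 85.9 CPM of those markers, had 0 and 1.90 CPM. B7hi saline 2 was also the library highest in T and NK cell markers, at 90.3 CPM. The part of these markers in the levels was not tested.

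**Figure D4:**
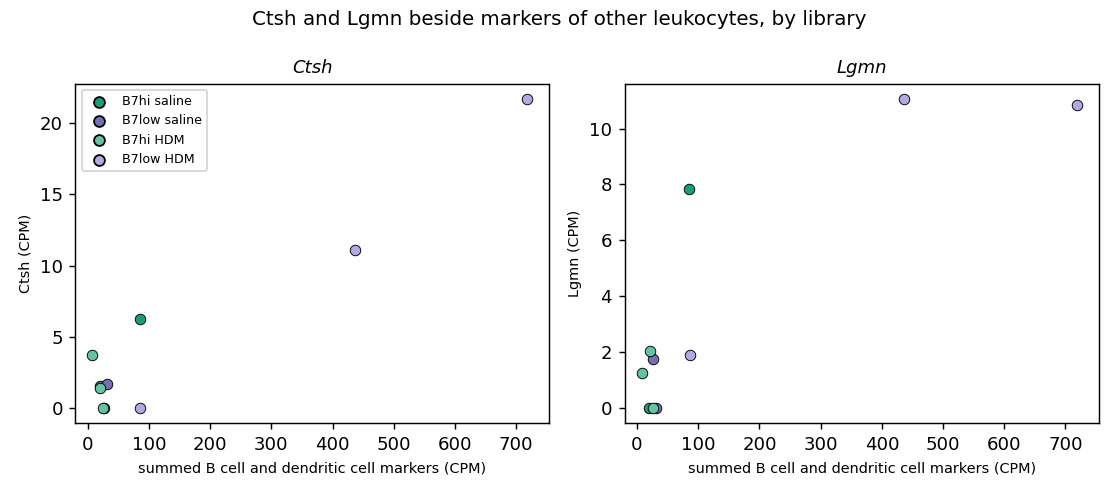
Level of Ctsh and Lgmn (CPM) against the summed level of B cell and dendritic cell markers (CPM) in each of the 10 libraries, coloured by group. B7low HDM 1 and 2 are highest in the summed markers and in both genes. Most of the dendritic cell part of the sum there is Ccr7.

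Among glycosidases, Naglu, the lysosomal N-acetylglucosaminidase that degrades heparan sulfate (chr11:101070012-101077672), was at 42.3 and 29.2 CPM in B7hi against 66.4 and 73.6 CPM in B7low with saline. With HDM it was at 25.6, 17.6 and 19.9 CPM against 54.2, 70.9 and 69.5 CPM. All B7hi libraries were below all B7low libraries. Naglu was lower in B7hi with HDM, at -1.60 ± 0.31 (log2, 3.02-fold, edgeR adjusted p = 0.00911) and its averaged difference was -1.29 ± 0.24 (0.00221), with -0.98 ± 0.37 in saline (0.133). Hexa, the α subunit of hexosaminidase A (chr9:59539540-59565109), was at 68.0 and 75.7 CPM against 177 and 142 CPM with saline. After HDM the levels were 119, 93.9 and 82.9 CPM against 137, 195 and 137 CPM. Its B7hi libraries were all below its B7low libraries, with a difference of -1.15 ± 0.31 in saline (adjusted p = 0.0357), -0.67 ± 0.25 in HDM (0.207) and -0.91 ± 0.20 averaged (0.00641). Man2b1, lysosomal α-mannosidase (chr8:85083270-85098282), was at 373 and 273 CPM against 147 and 169 CPM with saline, and at 297, 252 and 227 CPM against 237, 210 and 213 CPM with HDM. It was higher in B7hi with saline by 1.03 ± 0.27 (adjusted p = 0.0339) and averaged by 0.63 ± 0.18 (0.0268), and its groups overlapped with HDM (0.24 ± 0.22, 0.718). The other 7 glycosidases, Gla, Glb1, Gusb, Gaa, Neu1, Manba and Fuca1, which cut other sugar linkages, did not pass in any comparison. Their mean levels ran from 16.4 (Gla) to 97.9 CPM (Gaa) and their averaged differences from -0.63 (Gla) to 0.27 (Glb1). Without B7hi HDM 3 the HDM call of Naglu was lost (adjusted p = 0.0547). The saline call of Hexa was lost without each of the 4 saline libraries, by library size alone (0.0822), with no count filter (0.0627) and with a replicate block. Its averaged call was lost without B7hi saline 1. Man2b1 lost its saline call without 7 libraries and with a replicate block, and its averaged call without 5 libraries.

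Sulfatases remove sulfate groups from glycosaminoglycans and sulfolipids. Sgsh, which acts on heparan sulfate, was at 42.3 and 40.7 CPM in B7hi against 85.7 and 60.2 CPM in B7low with saline, and at 45.0, 54.8 and 41.1 CPM against 75.9, 48.1 and 82.8 CPM with HDM. Arsa, which acts on sulfatide, was at 43.1 and 19.3 CPM against 59.4 and 35.1 CPM with saline, and at 28.8, 25.4 and 41.8 CPM against 82.7, 48.8 and 65.1 CPM with HDM. The averaged differences of -0.69 ± 0.24 for Sgsh (edgeR adjusted p = 0.0714) and -0.80 ± 0.30 for Arsa (0.0950) did not pass. Galns and Arsb, at means of 7.33 and 13.5 CPM, had averaged differences of 0.67 ± 0.82 and 0.59 ± 0.54 that did not pass.

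In the lipid group, Psap (chr10:60277627-60302597) encodes prosaposin, the precursor of the saposins, which present glycolipids to their hydrolases. It was at 48.4 and 59.5 CPM in B7hi against 213 and 164 CPM in B7low with saline. In the HDM libraries it was at 70.0, 52.8 and 57.5 CPM against 202, 136 and 150 CPM. The highest B7hi library was below the lowest B7low library. Psap was lower in B7hi, at -1.80 ± 0.31 with saline (log2, 3.48-fold, edgeR adjusted p = 0.00234) and -1.41 ± 0.26 with HDM (2.66-fold, 0.00523), with an averaged difference of -1.61 ± 0.20 (5.61e-05). Leaving out B7hi saline 1 ended the saline call (adjusted p = 0.0598). Npc2, the soluble partner of NPC1 in cholesterol export, was at 193 and 180 CPM against 168 and 129 CPM with saline and at 186, 186 and 214 CPM against 112.5, 178 and 181 CPM with HDM. Its averaged difference of 0.32 ± 0.19 did not pass (0.313), and Ppt1, Asah1 and Lipa, which act on thioesters, ceramide and cholesteryl esters, did not pass either. Their averaged differences were -0.30 ± 0.22, -0.20 ± 0.20 and -0.16 ± 0.31.

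Gm2a encodes the GM2 activator, which lifts ganglioside GM2 from membranes so that hexosaminidase A can cut it (chr11:55098115-55113029). It was at 413 and 324 CPM in B7hi against 161 and 127 CPM in B7low with saline. With HDM it was at 234, 178 and 244 CPM against 248, 231 and 230 CPM. B7hi was above B7low with saline, and the groups overlapped with HDM. The difference was 1.35 ± 0.28 with saline (log2, 2.56-fold, edgeR adjusted p = 0.00729), -0.10 ± 0.22 with HDM (0.892) and 0.62 ± 0.18 averaged (0.0300). The saline call was lost without B7hi saline 1 or B7low saline 2 (adjusted p up to 0.108) and the averaged call without 6 libraries (up to 0.182).

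Grn, progranulin, a secreted protein that is cut into granulins in the lysosome (chr11:102430315-102437048), was at 26.5 and 29.2 CPM in B7hi against 238 and 53.5 CPM in B7low with saline. After HDM the levels were 98.1, 27.4 and 55.5 CPM against 125, 136 and 103 CPM. B7low saline 1 was the highest of the 10, and B7low saline 2 was below 2 of the B7hi HDM libraries. Grn was lower in B7hi with saline, at -2.38 ± 0.62 (log2, edgeR adjusted p = 0.0412) and its averaged difference was -1.66 ± 0.39 (0.0159), with -0.95 ± 0.48 in HDM (0.426). Without B7low saline 1 the averaged difference was -0.92 and no longer passed (0.0895), as also without B7hi saline 1 (0.0980) or B7hi saline 2 (0.0695). The saline call was lost without 5 of the 10 libraries and with a replicate block, and without B7low saline 1 the saline difference was -0.90. Tfeb was at 0, 1.57, 1.75, 3.34, 1.25, 0, 0.68, 0, 0 and 0 CPM, all at or near 0, and Tfe3 at 35.5 and 18.8 CPM against 28.0 and 25.1 CPM with saline and at 31.3, 29.4 and 19.2 CPM against 17.6, 20.2 and 5.06 CPM with HDM. Tfe3 did not pass (averaged 0.47 ± 0.39, adjusted p = 0.495).

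The second question was whether HDM changed the members within a population. In B7hi, 0 of 36 passed by edgeR, against 0.00949% of all genes. There 2 of 36 were at an unadjusted p under 0.05, against 435 of all 10533 genes. DESeq2 called 0 members, where it called 55 of all genes. In B7low, 0 of 36 passed by edgeR, against 0.00949% of all genes. Here 3 of 36 were at an unadjusted p under 0.05, against 956 of all 10533 genes. DESeq2 again called 0 members, where it called 19 of all genes. The members' medians were 0.00 in B7hi and 0.27 in B7low on the log2 scale, against 0.02 and 0.03 over all genes. CPM ranges were apart for 9 of 36 members in B7hi and 10 of 36 in B7low, against 20.6% and 23.9% of all genes. Ctsd in B7hi was 0.90 ± 0.30 with HDM against saline (adjusted p = 0.829) and Ctsa in B7low 0.93 ± 0.29 (0.354). For Gm2a the effect of HDM was -0.74 ± 0.24 in B7hi (adjusted p = 0.719) and 0.71 ± 0.26 in B7low (0.438), neither past the threshold. The interaction, which subtracts the response to HDM of B7low from that of B7hi, called 0 of 36 members by edgeR, against 0% of all genes. At an unadjusted p under 0.05 were 3 of 36 members and 901 of all 10533 genes. DESeq2 called 1, Gm2a, at -1.39 (adjusted p = 0.0261), where it called 44 of all genes. With no count filter edgeR also called Gm2a, where it called 143 of all genes. In the main edgeR fit the interaction of Gm2a was -1.46 ± 0.35 (adjusted p = 0.224), and over the alternatives it ran from -1.75 to -1.19.

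Genes around the set were read from 6 further lists. Of 18 tested genes of the V-ATPase, the proton pump that acidifies the lysosome, 0 passed between the populations by edgeR in the averaged comparison. Of all 10533 genes 11.9% did. At an unadjusted p under 0.05 were 0 of the 18 and 2707 of all genes. The median of the 18 was -0.01. The averaged counts of the other lists stand against 6.08% of all genes lower and 5.8% higher. Of 23 other hydrolases 5 were lower in B7hi and 0 higher. They included Ids, the iduronate sulfatase of heparan and dermatan sulfate breakdown, at 35.5 and 30.3 CPM against 173 and 186 CPM with saline and 46.3, 35.2 and 13.7 CPM against 157, 120 and 138 CPM with HDM (-2.29 ± 0.27, edgeR adjusted p = 3.37e-05). Of 24 other membrane proteins and transporters 3 were lower and 0 higher. With saline alone each of these lists had 1 gene lower and 1 higher, where 3.64% of all genes were lower and 2.91% higher. The higher genes of the lists were Ctss, a cysteine protease (4.33 ± 1.20, adjusted p = 0.0421), and Slc11a2, an iron transporter (2.52 ± 0.71, 0.0439). Ctss was at 11.3 and 26.6 CPM in B7hi against 1.75 and 0 CPM in B7low. Slc11a2 was at 20.4 and 19.8 CPM against 3.50 and 3.34 CPM. These B7low values lie below the 5.25 and 5.02 CPM that a count of 0 allows there. With HDM, Ctss was at 15.6, 17.6 and 25.3 CPM in B7hi against 69.1, 63.7 and 14.5 CPM in B7low. Slc11a2 was at 23.8, 21.5 and 19.2 CPM against 28.5, 13.0 and 30.3 CPM. B7low HDM 1 and 2, the libraries highest in Ctss, were also highest in the B cell and dendritic cell markers (718 and 436 CPM). B7hi HDM 3, at 25.3 CPM of Ctss, had 20.5 CPM of those markers. Their part in the level of Ctss was not tested. Leaving out single libraries ended the Ctss call in 6 cases and the Slc11a2 call in 9, and their adjusted p reached 0.264 and 0.160 over all alternatives. Of 30 sorting genes 5 were lower and 0 higher, among them Gga2, an adaptor for mannose 6-phosphate receptors (-2.18 ± 0.27, 4.04e-05), Vps39, a tethering subunit (-1.35 ± 0.19, 0.000162), and Lyst, which is mutated in Chediak-Higashi syndrome with its giant granules (-1.79 ± 0.31, 0.00119). Of 19 genes of the MiT/TFE family and mTORC1 control 2 were lower, Mitf and Fnip1, a partner of folliculin in nutrient sensing, and of 3 cystatins 1 was lower, the protease inhibitor Cst3. Mitf, which is the MiT/TFE gene best known in mast cells, was at 144 and 122 CPM against 217 and 311 CPM with saline and at 176, 106 and 101 CPM against 220, 163 and 156 CPM with HDM (-0.73 ± 0.21, 0.0324). Its call was lost without 6 of the 10 libraries, as were those of Fnip1 and Cst3, with adjusted p up to 0.185, 0.179 and 0.231 over all alternatives, and those of Ids, Gga2, Vps39 and Lyst held without each library in turn. Over the alternatives the averaged count ran from 2 to 7 for the other hydrolases, 0 to 7 for the other membrane proteins, 3 to 5 for sorting, 0 to 3 for MiT/TFE and mTORC1 control and 0 to 1 for the cystatins.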

How the data were processed

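Poly(A)+ RNA of sorted mast cells was amplified and sequenced by SmartSeq2 with paired reads of 25 nt, per the labels' protocols. The authors deposited raw counts per gene symbol for 10 libraries. For the build mm10, TopHat2 2.0.10, DESeq2 and Cufflinks 2.2.1 are listed, per the submitters' processing notes. How reads were counted, on which annotation and whether by strand is not given in the sources used here. Overlapping antisense genes therefore cannot be told apart. Groups were read from the sample titles.

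Counts were filtered with filterByExpr (minimum count 10, minimum total 15), which left 10533 genes, and TMM factors were computed. In R 4.3.3, edgeR 4.0.16 fitted a robust quasi-likelihood model with 1 mean per group over all 10 libraries. Contrasts were tested two-sided, with Benjamini-Hochberg adjustment over all 10533 genes and a threshold of 0.05. The SE is approximate, the log2 fold change divided by the root of the F statistic. The common biological coefficient of variation was 0.359. Libraries of a group differed beyond sampling noise (chi-square over its degrees of freedom 6.74 to 11.1), so none was counted as repeat sequencing of another. That measure cannot tell separate animals from separately amplified libraries of the same cells. Exon lengths and coordinates (1-based) are those of GENCODE M21 (GRCm38, also called mm10), and promoters from RefSeq. The scripts were tested on simulated data.

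The members and lists were chosen with earlier results of these data known. Values in every library are given for members past the threshold in a contrast, for the 2 members of each class with the highest mean CPM, and for Tfeb and Tfe3. Of each further list the counts are given, with up to 4 genes of smallest p, and 1 gene of those lists is not reported here. Alternatives were other scalings, DESeq2 1.42.0, no count filter, a replicate block and leaving out libraries.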

Additional observations from a re-analysis of the deposited data

Results flagged for a closer look

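For Gm2a the HDM libraries lay apart from the saline libraries in opposite directions in the populations, which is why it was flagged. Neither effect of HDM passed on its own, as given above. How many of all genes meet that rule was not counted. All 3 B7hi HDM libraries (234, 178 and 244 CPM) were below both B7hi saline libraries (413 and 324 CPM), and all 3 B7low HDM libraries (248, 231 and 230 CPM) were above both B7low saline libraries (161 and 127 CPM). The interaction was -1.46 ± 0.35 on the log2 scale (edgeR adjusted p = 0.224), so it did not pass after adjustment over all genes.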

How the results depend on the processing

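No called member and no called gene named from the further lists changed sign under any alternative run. Cell type markers were not followed under the alternatives. With a replicate block the saline count of 7 members became 4 and the averaged count of 12 became 11. The labels share replicate numbers, but deviations of same-numbered libraries correlated at -0.11 to 0.04 between populations and at -0.10 to 0.10 between challenges, and 0 of the 6 HDM libraries correlated best with their own number, so the numbers were not used as pairs. Leaving out 1 library gave 1 (without B7hi saline 1) to 7 members with saline, with 4 when B7low saline 2 was left out and 2 when either B7hi saline 2 or B7low saline 1 was. It gave 1 (without B7hi HDM 3) to 4 (without B7hi HDM 1) with HDM and 4 (without B7hi saline 1) to 12 averaged, with 6 without B7low saline 1. In each of these fits without 1 library that lowered the count of members, fewer of all genes passed as well. The cause was not tested. By library size alone and with no count filter the averaged count of members was 11. There 1447 and 1592 of all genes passed, against 1251 in the main fit. With HDM the count of 2 became 7 with the DESeq2 test and 5 with no count filter, and the interaction count of 0 became 1 with either. In alternatives chosen after seeing the data, leaving out both B7low saline 2 and B7hi HDM 2, which were high in Kcnq1ot1, lowered the saline count. Leaving out both B7low HDM 1 and 2, which were high in B cell markers and Ccr7, lowered the averaged count. The members still called there were all among the 12. With library size alone the saline count was 8 (4 higher, 4 lower), the higher share of all genes called went from 44.4% to 67.9% with saline and from 48.8% to 61.4% averaged, the median of all genes with saline went from 0.03 to 0.30, and the summed level with saline went from 3680 to 4058 CPM in B7hi and from 4583 to 4191 CPM in B7low. Of 582 recomputed counts for the further lists 75 moved by over 1.5 times, to 0 or from 0. Depth limits Tfeb, Ctsh, Lgmn and Galns, each at 0 in some library.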
